A study of Mus musculus with 4 samples.

Results

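The 31 genes described here cover the path of a fatty acid from the blood to the respiratory chain. They comprise uptake and binding, activation, carriage into the mitochondrion, beta-oxidation, electron transfer, lipolysis, the transcription factors of the pathway and the uncoupling proteins. They were taken by symbol from a table of 24328 genes, in which all 31 were present. The table held levels of polyadenylated RNA from mouse muscle stem cells, also called satellite cells. These were read as FPKM (fragments per kilobase of transcript, scaled to library size, so that levels can be compared between genes), a unit inferred from the values. In the 2 YFP libraries the mice were Pax7CreERT2/+; ROSA26YFP/+ at 7 months of age. In the 2 DEK libraries they were Pax7CreERT2/+; H11DEK-EGFP/+ at 4.5 months. All mice carried the tamoxifen-inducible Cre recombinase at Pax7, the gene that marks satellite cells, and in all of them tissue was fixed by paraformaldehyde perfusion ahead of digestion and cell sorting. Age, reporter and transgene locus went with the group, so each difference holds for that combination and its sources cannot be told apart. The sort gate and the number of animals behind a library are not given, so the p-values speak only of library-to-library spread, which may be technical.

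Long-chain fatty acids enter cells with the help of the scavenger receptor Cd36 and are freed from lipoproteins by lipoprotein lipase. Inside the cell they are bound to coenzyme A, passed as carnitine esters through the mitochondrial membranes, and shortened in a repeated cycle of dehydrogenation, hydration, oxidation and thiolysis. The entry step, carnitine palmitoyltransferase 1, is the main point of control and is inhibited by malonyl-CoA, the building block of fatty acid synthesis. Quiescent satellite cells are known for their use of fatty acid oxidation, and their activation is accompanied by a shift towards glycolysis.

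Dek, the gene of a chromatin protein and the insert of the transgene, measured 512 and 504 FPKM in the YFP libraries, against 3196 and 1639.5 FPKM in the DEK libraries (limma adjusted p = 0.0195). The satellite cell gene Pax7 measured 93.9 to 106 FPKM in YFP and 119 to 184 FPKM in DEK and was not called (limma adjusted p = 0.159). Of 16 tested satellite cell markers, both DEK values lay above both YFP values for 9 and below for 2. Over all tested genes these shares were 34% and 26.9%. The 2 below were Myod1 (153 and 128 FPKM in YFP, 103 and 99.3 FPKM in DEK) and Myf5 (312 and 306 FPKM, 220 and 267 FPKM). Neither was called (limma adjusted p = 0.108 and 0.190). The ribosomal RNA precursor Rn45s held 11.8% and 15.7% of the column total in YFP and 5.15% and 5.55% in DEK. Markers of several other cell types were higher in DEK. Endothelial markers summed to 78.5 to 81.3 FPKM in YFP and 243 to 306 FPKM in DEK, and 14 of 18 tested were called higher, where 4.57% of all tested genes were. The filter of 1 FPKM in 2 libraries shaped that count, since 13 of the 14 passed it through the DEK libraries alone and so had to differ. Of the 5 that reached 1 FPKM in both groups 1, Aqp1, was called, and Vwf, Tek, Eng and Sox18 were not. Macrophage and monocyte markers summed to 3.76 to 20.2 FPKM and 109 to 135 FPKM, with 7 of 10 called higher, all 7 of which passed the filter through DEK alone. The other 3, Lyz2, Cd68 and Cd14, were not called. Fibro-adipogenic progenitor markers summed to 1014 to 1134 FPKM and 1638 to 1715 FPKM, with 7 of 11 called higher, 3 of them through DEK alone. Single genes that were not called weighed heavily in these sums. Tek measured 55.9 and 56.7 FPKM in YFP, Lyz2 73.4 and 100 FPKM in DEK, and Gsn 487 and 406 FPKM in YFP. Of 20 endothelial markers 5 were at 0 in both YFP libraries, as were 7 of 15 macrophage markers, and none in DEK. In the further lists 1 of 5 leukocyte, 2 of 5 erythroid, 3 of 12 pericyte and smooth muscle, 2 of 5 Schwann cell, 1 of 16 satellite cell and 1 of 1 tested adipocyte markers were called higher, and of 12 mature myofibre markers 1 was called higher and 1 lower. The called leukocyte, erythroid and adipocyte markers, and 2 of the 3 pericyte and smooth muscle markers, passed the filter through DEK alone. The adipocyte genes Cidec, Pck1 and Retn were at 0 in all libraries, and Adipoq was listed at 0 in 3 libraries and at 0.0114 FPKM in DEK replicate 2. The part of other cells in the results was not tested. In these bulk samples fewer cells of a type and less RNA per cell cannot be told apart.

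The pathway did not move as a block in DEK. Mean levels of the carnitine gate gene Cpt1a, the long-chain dehydrogenase gene Acadl and the triglyceride lipase gene Pnpla2 fell 2.06-fold, 1.85-fold and 2.10-fold, while Acsl5, which activates fatty acids, rose 2.14-fold and Cd36 went from near 0 to 8.24 and 18.4 FPKM. The remaining 25 tested members did not pass. Of the 30 members tested (those that reached 1 FPKM in 2 or more libraries), 2 were called higher and 3 lower by limma at an adjusted p under 0.05. That is 16.7% of the members, against 7.78% of the 12179 genes tested, of which 4.57% were called higher and 3.21% lower. The members were chosen with earlier results of these data known, so this share is no independent evidence about the pathway. Cd36 passed the filter only through the DEK libraries, where it is high, so its place in this count follows in part from the filter. Ppard, not called, passed it only through YFP. At an unadjusted p under 0.05 the members counted 6 higher and 8 lower, and all tested genes 2057 higher and 1488 lower. Both DEK values lay above both YFP values for 9 of the 30 members and below for 10. Over all tested genes the groups did not overlap for 60.9%, with DEK above for 34% and below for 26.9%, so the members are near this background. The median log2 fold change of the members was 0.01, and that of all tested genes was 0.05. Summed over the 31 genes, the level was 972 and 907 FPKM in YFP, against 936 and 974 FPKM in DEK. The Acadl, Cpt1a, Pnpla2, Acsl5 and Cd36 calls kept their direction under each of the alternatives that gave a value, but all 5 were lost with no filter on low values (limma adjusted p = 0.0532 to 0.0817). Each of the 5 calls also depended on single libraries, as given for each gene below. Acadl was lost with the replicate block and without the variance trend as well. An exact permutation test of 2 libraries against 2 cannot give a p under 0.33, and the calls rest on the spread that limma shares across genes.

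**Figure D1:**
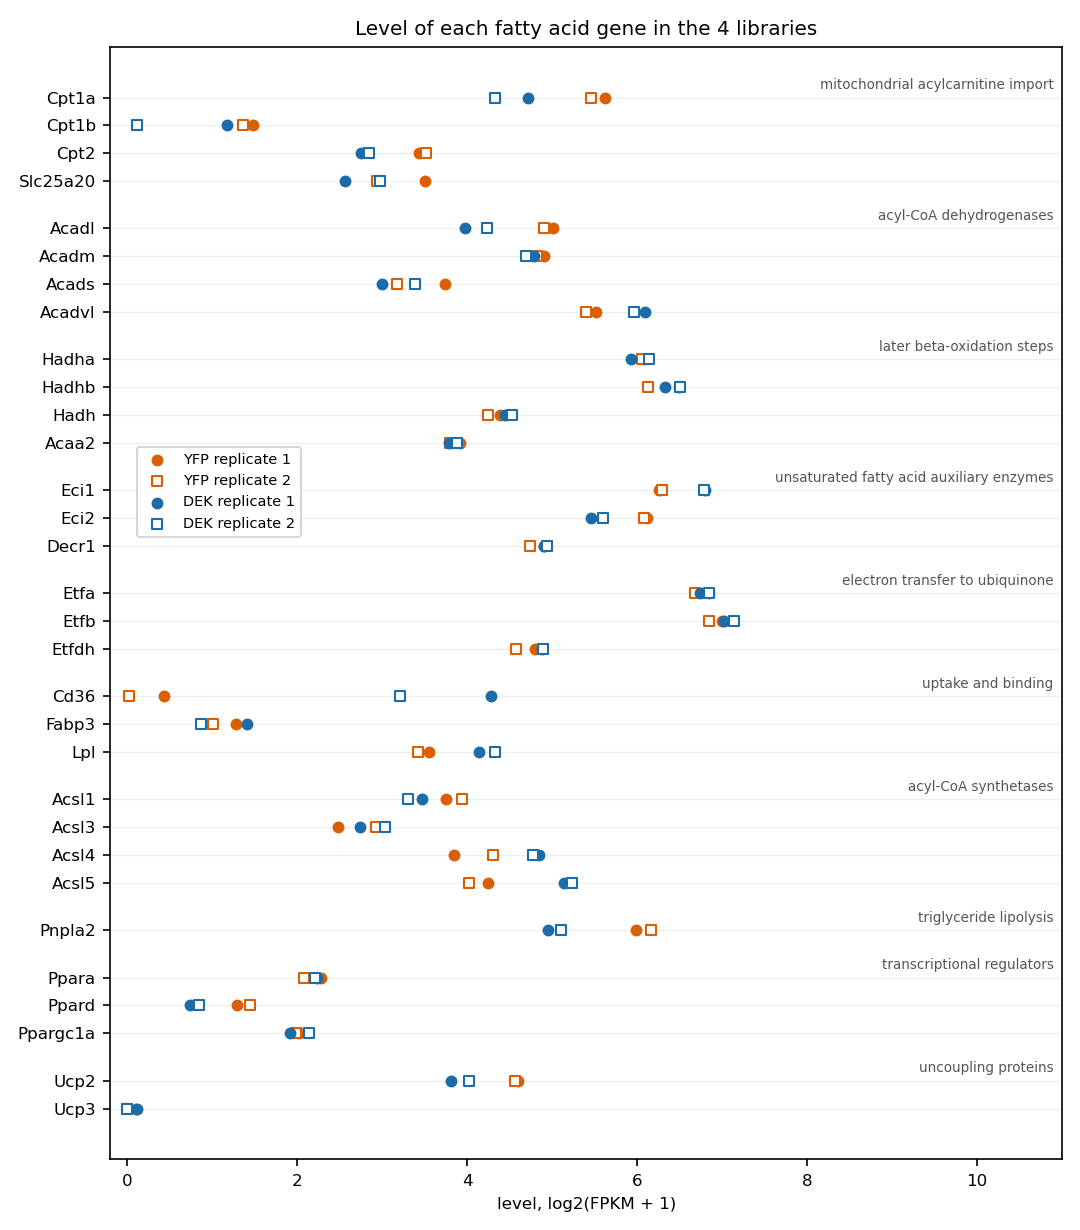
Level of the 31 genes in each of the 4 libraries, as log2(FPKM + 1) on the horizontal axis, with genes on the vertical axis grouped by role; orange marks YFP, blue DEK, circles replicate 1 and open squares replicate 2. Etfb sits furthest right, Cd36 is the gene with the widest gap between groups, and Ucp3 lies at or near 0 in all libraries.

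**Figure D2:**
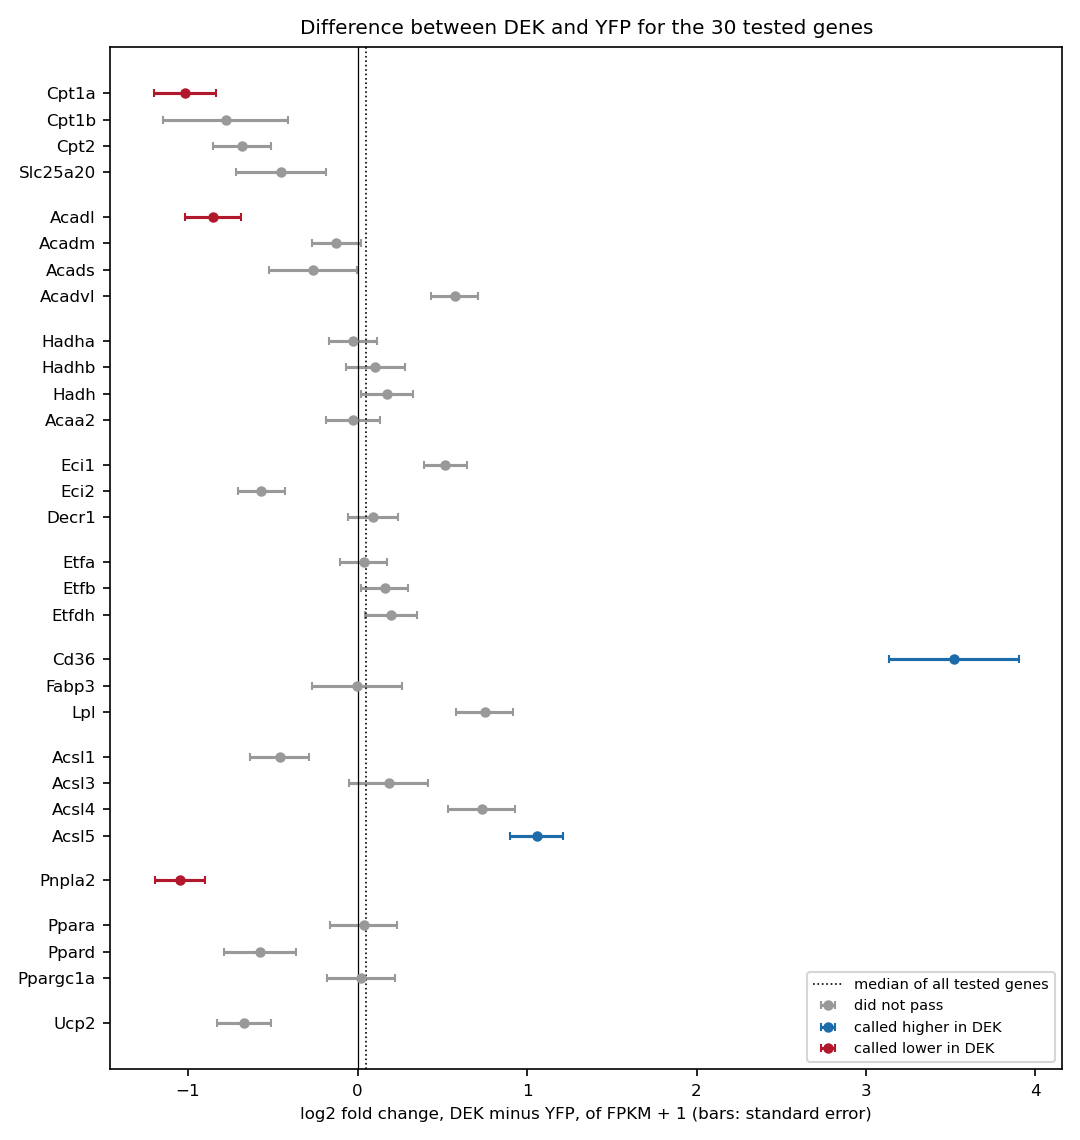
Log2 fold change, DEK minus YFP, of FPKM + 1 for the 30 tested genes on the horizontal axis, with the limma standard error as a bar and genes by role on the vertical axis. Blue marks the 2 genes called higher, red the 3 called lower, grey the others, and the dotted line is the median of all tested genes at 0.05.

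Promoter sequence was available for 27 of the 31 members in the RefSeq table of build GRCm38.p6; the deposited values were made on mm9, so these windows locate the genes in the later build only. Shown are the 250 bases before the annotated start of the 5 genes that passed, each on its gene's strand, because they are the members whose RNA differed. Capitals mark AGGTCA on either strand (TGACCT where it lies on the other strand), the core to which PPAR and related nuclear receptors bind.
Cpt1a, chr19:3323051-3323300 (plus strand): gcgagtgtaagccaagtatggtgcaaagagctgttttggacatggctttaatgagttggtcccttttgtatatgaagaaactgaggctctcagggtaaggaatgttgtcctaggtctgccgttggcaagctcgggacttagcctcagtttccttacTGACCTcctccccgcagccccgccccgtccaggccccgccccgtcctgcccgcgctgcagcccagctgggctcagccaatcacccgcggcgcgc
Acadl, chr1:66863310-66863559 (minus strand): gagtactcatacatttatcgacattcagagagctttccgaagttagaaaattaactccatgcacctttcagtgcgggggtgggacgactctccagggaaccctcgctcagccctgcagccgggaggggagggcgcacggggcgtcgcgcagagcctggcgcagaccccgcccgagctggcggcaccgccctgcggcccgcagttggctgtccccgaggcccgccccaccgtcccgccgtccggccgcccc
Pnpla2, chr7:141454938-141455187 (plus strand): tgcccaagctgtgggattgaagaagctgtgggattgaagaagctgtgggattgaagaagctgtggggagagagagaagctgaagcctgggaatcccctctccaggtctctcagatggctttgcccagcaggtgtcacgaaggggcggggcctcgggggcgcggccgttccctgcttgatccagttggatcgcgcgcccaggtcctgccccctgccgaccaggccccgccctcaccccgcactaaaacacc
Acsl5, chr19:55253119-55253368 (plus strand): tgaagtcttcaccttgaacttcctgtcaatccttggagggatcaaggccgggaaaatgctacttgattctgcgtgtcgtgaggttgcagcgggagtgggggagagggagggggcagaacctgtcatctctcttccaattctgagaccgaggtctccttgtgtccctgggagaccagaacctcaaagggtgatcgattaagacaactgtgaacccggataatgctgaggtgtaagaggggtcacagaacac
Cd36, chr5:17835897-17836146 (minus strand): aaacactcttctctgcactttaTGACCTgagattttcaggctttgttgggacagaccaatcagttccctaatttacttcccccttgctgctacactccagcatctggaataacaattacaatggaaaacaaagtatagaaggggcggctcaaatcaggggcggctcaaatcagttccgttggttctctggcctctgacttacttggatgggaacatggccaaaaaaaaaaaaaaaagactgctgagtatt
The core occurred once in the Cpt1a window, as TGACCT at bases -94 to -89 from the start, and once in the Cd36 window, as TGACCT at bases -228 to -223. Over the members it was found in 5 of 27 (Acadm, Acadvl, Cd36, Cpt1a and Ucp3; 18.5%), against 15.8% of the 27025 genes in the table. The direct repeat of AGGTCA with 1 base between the copies, searched on both strands, was in 0 of 27 members and in 0.0407% of genes, and the extended core TCAAGGTCA, which contains AGGTCA, was in 0 of 27 and in 0.422%. No match says only that these letters are not in this window. The windows differed in composition, from 68% G and C with 25 CpG dinucleotides for Acadl to 43.2% with 3 for Cd36. The median over all 32851 windows was 52.4% with 6 CpG dinucleotides.

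The carnitine import step was lower in DEK at its main gene. Cpt1a, the liver-type carnitine palmitoyltransferase that forms acylcarnitines at the outer mitochondrial membrane, measured 48.1 and 42.97 FPKM in YFP (replicates 1 and 2, in this order here and for each gene), against 25.2 and 19.0 FPKM in DEK. The groups did not overlap, and both DEK libraries were well under the lower YFP value. The limma fit gave a log2 fold change of -1.02 (SE 0.18) with an adjusted p of 0.0323. Leaving out YFP replicate 1 ended the call (adjusted p = 0.129), as did YFP replicate 2 (0.149) and each of DEK replicates 1 (0.109) and 2 (0.111). With the filter applied again to the 3 remaining libraries it held without DEK replicate 1 (0.0290) or DEK replicate 2 (0.0496).

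Cpt1b, the muscle-type isoform, measured 1.79 and 1.57 FPKM in YFP, against 1.25 and 0.0812 FPKM in DEK, with a log2 fold change of -0.78 that did not pass (adjusted p = 0.223). Nearly the whole of its exon sequence, 94.8%, is shared with the model Gm44502 on the same strand, so its level is uncertain. Cpt1a made up 96.4% and 96.5% of the summed Cpt1 level in YFP and 95.3% and 99.6% in DEK. Cpt2, which turns acylcarnitines back into acyl-CoA on the inner membrane, measured 9.79 and 10.4 FPKM in YFP, against 5.70 and 6.16 FPKM in DEK. These values did not overlap, and the log2 fold change of -0.68 (SE 0.17) just missed the threshold (adjusted p = 0.0674). Slc25a20, the carrier that exchanges acylcarnitine for carnitine between these enzymes, measured 10.3 and 6.65 FPKM in YFP, against 4.90 and 6.83 FPKM in DEK. YFP replicate 1 was the high library and the groups overlapped (log2 fold change -0.45, adjusted p = 0.307). The 4 import genes together summed to 70.0 and 61.6 FPKM in YFP and to 37.1 and 32.1 FPKM in DEK, most of it Cpt1a.

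Within the acyl-CoA dehydrogenases, which open each turn of the cycle and differ in the chain length they prefer, the genes went different ways in value. Acadl, the long-chain enzyme, measured 31.3 and 28.9 FPKM in YFP, against 14.7 and 17.9 FPKM in DEK. Both DEK values were under both YFP values, and limma gave a log2 fold change of -0.85 (SE 0.17) with an adjusted p of 0.0381. Leaving out YFP replicate 1 ended the call (adjusted p = 0.138), as did YFP replicate 2 (0.162), and likewise DEK replicate 1 (0.191) or DEK replicate 2 (0.0963, or 0.0343 with the filter applied again). It was also lost with the replicate number as a block (0.0637) and without the variance trend (0.0513).

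Acadvl, the very-long-chain enzyme of the inner membrane, went the other way in value. It measured 44.7 and 41.1 FPKM in YFP, against 67.0 and 61.5 FPKM in DEK, without overlap, and its log2 fold change of 0.57 (SE 0.14) did not pass (adjusted p = 0.0625). The gene Dvl2 on the opposite strand overlaps 45% of the Acadvl exon bases, and whether the counting used strand is not stated. Dvl2 itself measured 10.5 and 16.7 FPKM in YFP, against 13.0 and 11.8 FPKM in DEK. Acadm and Acads, for medium and short chains, had log2 fold changes of -0.12 (adjusted p = 0.602) and -0.26 (adjusted p = 0.536), the latter positive without YFP replicate 1. As a share of the summed FPKM of the 4 dehydrogenases, Acadl took 27.0% ± 0.53 in YFP and 14.2% ± 2.11 in DEK, and Acadvl 38.6% ± 0.69 and 56.1% ± 2.84 (SD, n = 2 each). The sum itself was 111 ± 8.5 FPKM in YFP and 115 ± 1.17 FPKM in DEK, so the family's total differed by less than the YFP libraries did from each other while its make-up differed. These shares have no test.

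**Figure D3:**
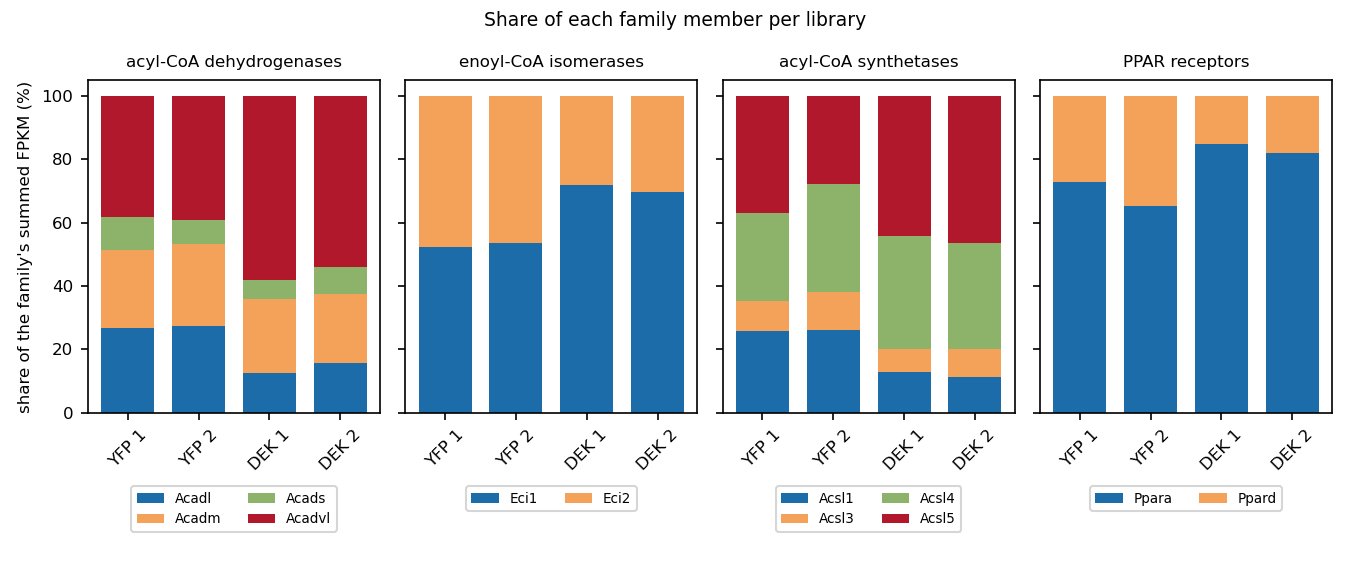
Share of each gene in the summed FPKM of its family (vertical axis, percent) in YFP replicates 1 and 2 and DEK replicates 1 and 2 (horizontal axis), for the acyl-CoA dehydrogenases, enoyl-CoA isomerases, acyl-CoA synthetases and PPAR receptors. In both DEK libraries the Acadvl, Eci1, Acsl5 and Ppara segments are larger than in both YFP libraries.

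The steps that follow the dehydrogenases showed no call. Hadha and Hadhb, the subunits of the trifunctional protein that carries out the last 3 reactions on long chains, measured 66.4 and 65.4 FPKM and 89.4 and 68.7 FPKM in YFP. In DEK they measured 60.1 and 69.7 FPKM and 79.4 and 89.5 FPKM. The groups overlapped for both, and the log2 fold changes were -0.03 (adjusted p = 0.924) and 0.10 (adjusted p = 0.727). These genes lie head to head, with annotated starts 273 bases apart on opposite strands in RefSeq (GRCm38.p6). Hadh, which oxidises shorter hydroxyacyl-CoA, and the thiolase gene Acaa2 had log2 fold changes of 0.17 (adjusted p = 0.484) and -0.03 (adjusted p = 0.933). These small differences changed sign under some settings, for Hadhb with Rn45s removed or without YFP replicate 2, for Hadha without DEK replicate 1, and for Acaa2 without YFP replicate 1 or DEK replicate 1. Of these 4 genes limma called 0, with 0 at an unadjusted p under 0.05.

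Unsaturated fatty acids need helper enzymes to move their double bonds, and the genes of the isomerases stood in opposite directions. Eci1, the mitochondrial enoyl-CoA isomerase, measured 75.5 and 77.2 FPKM in YFP, against 110 and 109 FPKM in DEK, a log2 fold change of 0.52 (SE 0.13) that did not pass (adjusted p = 0.0639). Eci2, an isomerase found in mitochondria and peroxisomes, measured 68.4 and 66.5 FPKM in YFP, against 43.0 and 47.5 FPKM in DEK, a log2 fold change of -0.57 (SE 0.14) that did not pass either (adjusted p = 0.0611). For each gene the values within a group lay close together and the groups did not overlap. Eci1 made up 53.1% ± 0.89 of their sum in YFP and 70.8% ± 1.53 in DEK (SD, n = 2 each), a share with no test. Eci2 passed limma after TMM scaling (adjusted p = 0.0354), quantile normalization (0.0316) and removal of Rn45s (0.034), and Eci1 passed in none of these. Among all 19 alternatives, 1 of them an adjusted p under 0.1, Eci2 passed in 4 and Eci1 in 1. Decr1, the dienoyl-CoA reductase, differed by 0.09 on the log2 scale (adjusted p = 0.715), or negatively with Rn45s removed. Of these 3 genes limma called 0, with 1 higher and 1 lower at an unadjusted p under 0.05.

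Electrons from the dehydrogenases pass to the flavoprotein encoded by Etfa and Etfb and then to ubiquinone through Etfdh. Etfb and Etfa were the most abundant transcripts among the members in YFP, with Etfb at 126 and 114 FPKM and Etfa at 114 and 102 FPKM in YFP, and 129 and 140 FPKM and 106 and 114 FPKM in DEK. The Etfb level is uncertain, since 69.1% of its exon bases are shared with the model Gm45233. Etfdh measured 26.8 and 22.9 FPKM in YFP, against 28.5 and 28.6 FPKM in DEK. The log2 fold changes of Etfa, Etfb and Etfdh were 0.04, 0.16 and 0.20, none of which passed limma (adjusted p = 0.884, 0.477 and 0.430), with 0 at an unadjusted p under 0.05. The small Etfa difference was negative after TMM scaling, quantile normalization or removal of Rn45s, and without YFP replicate 2 or DEK replicate 2.

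At the cell surface Cd36 showed the widest gap between groups of any member. Cd36, the scavenger receptor that takes up long-chain fatty acids and is abundant in capillary endothelium, macrophages and adipocytes, measured 0.344 and 0.0156 FPKM in YFP, against 18.4 and 8.24 FPKM in DEK. It was near 0 in both YFP libraries and highest in DEK replicate 1. Since it was tested only because both DEK libraries reached 1 FPKM, it had to differ once tested. The limma fit gave a log2 fold change of 3.52 (SE 0.38) with an adjusted p of 0.00913. With such low YFP values the size depends on the value added before the logarithm, and it was 5.78 with 0.1 and 1.77 with 5. The call held without DEK replicate 2 (adjusted p = 0.0412) and was lost without YFP replicate 1 (0.0682, and 0.0485 with the filter applied again) or YFP replicate 2 (0.0905). It was also lost without DEK replicate 1 (0.0909), and with the filter applied again without a DEK library the gene was not tested. In the same libraries the endothelial markers Ptprb, Flt1 and Kdr were listed at 0 in both YFP libraries and measured 2.19 to 34.9 FPKM in DEK. Others of that list were present in YFP and not called. Vwf, Tek, Eng and Sox18 measured 0.996 to 56.7 FPKM in YFP, against 1.37 to 78.8 FPKM in DEK. The macrophage marker Csf1r measured 0.0977 and 0 FPKM in YFP, against 5.997 and 5.38 FPKM in DEK. Lyz2, Cd68 and Cd14 of its list were not called and measured 0.200 to 15.2 FPKM in YFP, against 1.81 to 100 FPKM in DEK. The part of endothelial cells and macrophages in the Cd36 difference was not tested.

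Lpl, lipoprotein lipase, which frees fatty acids from circulating triglyceride, measured 10.7 and 9.68 FPKM in YFP, against 16.7 and 19.0 FPKM in DEK. The groups did not overlap, and the log2 fold change of 0.75 (SE 0.17) lay just outside the threshold (adjusted p = 0.0516). Lpl passed limma at 5 FPKM or more in 2 libraries (adjusted p = 0.0455), after TMM scaling (0.046) or quantile normalization (0.0449) and with robust estimation (0.0448). Among all 19 alternatives, 1 of them an adjusted p under 0.1, it passed in 5. Gpihbp1, which anchors this lipase to capillary endothelium and is itself on the endothelial marker list, was called higher and measured 0.0103 and 0 FPKM in YFP, against 2.45 and 1.70 FPKM in DEK. It passed the filter only through DEK and was not tested with the filter applied again without a DEK library. Fabp4, a fatty acid carrier of endothelium, adipocytes and macrophages, was also called higher and measured 1.32 and 0.33 FPKM in YFP, against 53.9 and 49.0 FPKM in DEK. The Fabp4 call was lost without DEK replicate 1 (adjusted p = 0.0901) and the Gpihbp1 call without any 1 library (0.0614 to 0.109), on the same genes. Fabp3, the muscle-type carrier, measured 1.42 and 1.004 FPKM in YFP, against 1.64 and 0.828 FPKM in DEK, with overlap and a difference of -0.002 on the log2 scale (adjusted p = 0.997).

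**Figure D4:**
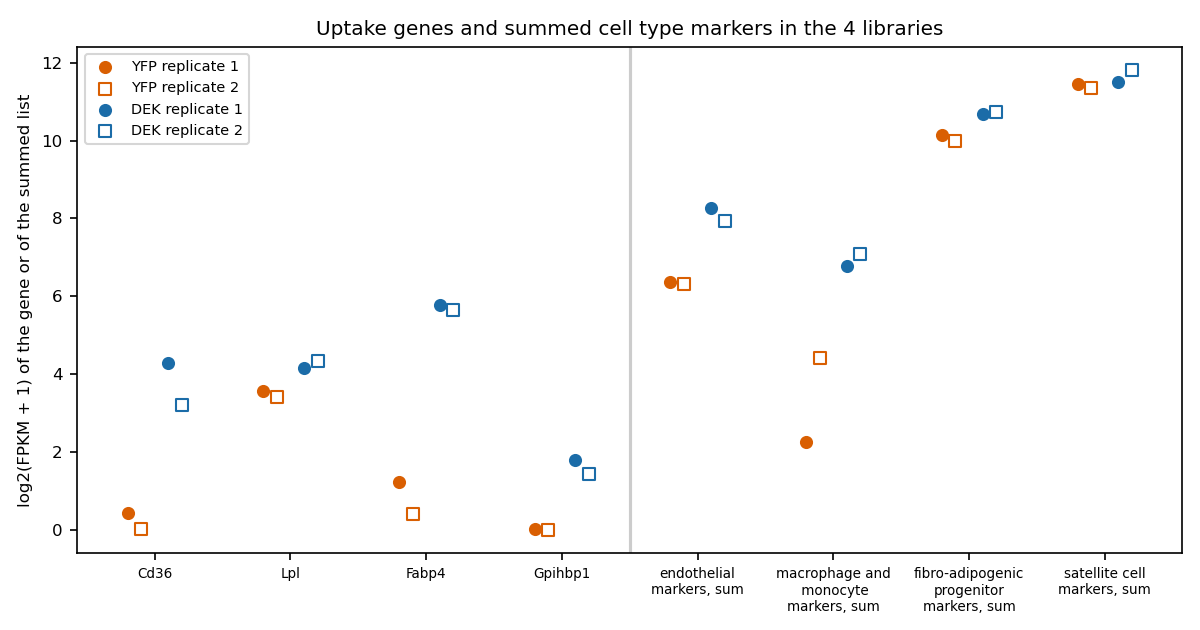
Levels in the 4 libraries, as log2(FPKM + 1) on the vertical axis, of the uptake genes Cd36, Lpl, Fabp4 and Gpihbp1 (left) and of the summed endothelial, macrophage, fibro-adipogenic progenitor and satellite cell markers (right); orange marks YFP, blue DEK, circles replicate 1 and open squares replicate 2. Each of the 4 genes and each of the marker sums is higher in both DEK libraries than in both YFP libraries.

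The acyl-CoA synthetases, which bind fatty acids to coenzyme A, differed from gene to gene. Acsl5, an isoform of the outer mitochondrial membrane and endoplasmic reticulum, measured 17.9 and 15.2 FPKM in YFP, against 34.3 and 36.6 FPKM in DEK. The values of each group lay close together and far apart from the other group, and limma gave a log2 fold change of 1.06 (SE 0.16) with an adjusted p of 0.0206. Leaving out YFP replicate 1 ended the call (adjusted p = 0.0823), as did YFP replicate 2 (0.131), and likewise DEK replicate 1 (0.148) or DEK replicate 2 (0.111; 0.0411 with the filter applied again). Acsl4, which prefers arachidonic acid, measured 13.4 and 18.8 FPKM in YFP, against 27.7 and 26.4 FPKM in DEK (log2 fold change 0.73, adjusted p = 0.0763). Acsl1, the isoform tied to oxidation in muscle and fat, measured 12.5 and 14.3 FPKM in YFP, against 10.09 and 8.88 FPKM in DEK (log2 fold change -0.46, adjusted p = 0.151). Acsl3, an isoform of lipid droplets, differed by 0.18 on the log2 scale (adjusted p = 0.642), a sign that turned without YFP replicate 1. The 4 genes summed to 51.7 ± 4.67 FPKM in YFP and 78.4 ± 0.94 FPKM in DEK. Within that sum the share of Acsl1 was 25.95% ± 0.20 in YFP and 12.1% ± 1.24 in DEK, and that of Acsl5 was 32.4% ± 6.68 and 45.2% ± 1.55 (SD, n = 2 each), with no test.

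Fatty acids stored as triglyceride are first released by adipose triglyceride lipase, encoded by Pnpla2. It measured 62.2 and 70.8 FPKM in YFP, against 29.9 and 33.5 FPKM in DEK. No value of one group came near the other, and limma gave a log2 fold change of -1.05 (SE 0.15) with an adjusted p of 0.0187. Leaving out YFP replicate 1 ended the call (adjusted p = 0.088), as did YFP replicate 2 (0.136) and each of DEK replicates 1 (0.136) and 2 (0.0793). With the filter applied again it held without DEK replicate 1 (0.0485) and DEK replicate 2 (0.0179). Among other storage and lipolysis genes, Mgll, the monoacylglycerol lipase that takes the last fatty acid from glycerol, rose from 31.2 ± 5.64 to 86.4 ± 15.3 FPKM (SD, n = 2 each; log2 fold change 1.44, adjusted p = 0.0167). Plin5, a lipid droplet coat protein of oxidative tissue, fell from 1.82 and 1.38 FPKM to 0.114 and 0.117 FPKM (adjusted p = 0.0341), but it passed the filter only through YFP and was not tested with the filter applied again without a YFP library. Mgll lost its call on the same genes without any 1 library (adjusted p = 0.0871 to 0.109). Of the 21 tested genes of that list 1 rose and 1 fell, 9.52% against 7.78% of all tested genes.

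The transcriptional regulators were low and did not pass. Ppara, the receptor that drives oxidation genes in liver and heart, measured 3.86 and 3.22 FPKM in YFP, against 3.68 and 3.61 FPKM in DEK (log2 fold change 0.04, adjusted p = 0.921). Ppargc1a, the coactivator of mitochondrial biogenesis, measured 3.06 and 2.97 FPKM in YFP, against 2.77 and 3.401 FPKM in DEK (log2 fold change 0.02, adjusted p = 0.958). For both genes the groups overlapped, and the sign turned after TMM scaling, quantile normalization or removal of Rn45s, for Ppara also without YFP replicate 2 and for Ppargc1a without DEK replicate 2. Ppard, the receptor form that is widespread in muscle, measured 1.45 and 1.72 FPKM in YFP, against 0.666 and 0.80 FPKM in DEK, without overlap (log2 fold change -0.58 ± 0.21 SE, adjusted p = 0.143). Of these 3 genes limma called 0, with 1 lower at an unadjusted p under 0.05.

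The uncoupling protein gene Ucp2, whose product carries metabolites and protons across the inner membrane, measured 23.2 and 22.6 FPKM in YFP, against 13.0 and 15.2 FPKM in DEK. These values did not overlap, and the log2 fold change of -0.67 (SE 0.16) did not pass (adjusted p = 0.0608). Ucp2 passed limma after TMM scaling (adjusted p = 0.0397), quantile normalization (0.0367) and removal of Rn45s (0.0386). Among all 19 alternatives, 1 of them an adjusted p under 0.1, it passed in 4. Ucp3, the muscle form and a neighbour of Ucp2 on the chromosome, was at 0.0762 and 0 FPKM in YFP, against 0.0779 and 0 FPKM in DEK, under the filter and not tested.

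Across the members, the highest and lowest genes were largely the same in both groups, while several others changed place. By rank of mean FPKM among the 31, Cd36 went from 30 in YFP to 19 in DEK and Acsl5 from 16 to 8. Acadl went from 10 to 17 and Cpt1a from 8 to 14. In YFP the order of mean FPKM ran from Etfb (120 ± 8.77) and Etfa (108 ± 8.5), with Etfb above Etfa in each library and both Etfb values above both Etfa values, through Hadhb (79.0 ± 14.7) and Eci1 (76.3 ± 1.23) to Eci2 (67.4 ± 1.31), Pnpla2 (66.5 ± 6.13) and Hadha (65.9 ± 0.735). In DEK Etfb (134 ± 7.9) again came first, followed by Etfa (110 ± 5.82) and Eci1 (110 ± 0.458), which lay within the spread of each other. Hadhb (84.5 ± 7.1), Hadha (64.9 ± 6.79) and Acadvl (64.3 ± 3.9) came next, and Pnpla2 was at 31.7 ± 2.53 (SD, n = 2 each). The low end in both groups was held by Fabp3, Cpt1b, Ppard and Ucp3, joined in YFP by Cd36.

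The other genes of fatty acid metabolism were taken from 8 lists of related genes. All 8 lists were written with earlier results of these data known, so their counts are no independent evidence. Of 169 in the table outside the 31, 143 were tested, and 10 were called higher and 5 lower, 10.5% against 7.78% of all tested genes. Of these 15 calls, those of Gpihbp1, Plin5 and Slc25a34 are of genes that passed the filter through 1 group alone. In the list of malonyl-CoA, AMPK and synthesis genes 4 of 22 rose and 0 fell, or 18.2% called against 7.78% of all tested genes. At an unadjusted p under 0.05, 10 were higher and 0 lower, against 2057 and 1488 of all 12179 genes tested. The median log2 fold change was 0.31, and that of all tested genes was 0.05. Acly, which makes cytosolic acetyl-CoA, rose from 20.4 ± 2.68 to 49.1 ± 6.51 FPKM, or 1.23 ± 0.17 SE as a log2 fold change (limma adjusted p = 0.0182). Fasn, the fatty acid synthase, rose from 32.6 ± 4.99 to 74.8 ± 10.24 FPKM, or 1.17 ± 0.18 SE as a log2 fold change (adjusted p = 0.021). The desaturase gene Scd1 and the elongase gene Elovl6 rose with log2 fold changes of 0.79 (adjusted p = 0.0382) and 0.85 (adjusted p = 0.0451). Acaca, which makes the malonyl-CoA used for synthesis, was chosen after its values were seen and measured 2.63 and 2.95 FPKM in YFP, against 5.47 and 5.92 FPKM in DEK (adjusted p = 0.0559). Acacb, the form tied to the malonyl-CoA that restrains Cpt1, was chosen likewise and measured 10.01 and 10.9 FPKM in YFP, against 9.46 and 10.1 FPKM in DEK (log2 fold change -0.08, adjusted p = 0.778). Mlycd, which breaks malonyl-CoA down and was also chosen likewise, overlapped between groups (log2 fold change -0.19, adjusted p = 0.685). The calls of Acly, Fasn, Scd1 and Elovl6 were lost when any 1 library was left out on the same genes (adjusted p = 0.0985 to 0.200), and Acly and Fasn kept them without either DEK library with the filter applied again (0.0279 to 0.0325), as Scd1 and Elovl6 did not (0.0559 to 0.133).

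Known target genes of PPAR receptors moved in both directions, with 2 of 13 higher and 4 lower, 46.2% against 7.78% of all tested genes, and a median log2 fold change of 0.05. The list was written with earlier results of these data known, so its count is no independent evidence. Angptl4, a secreted inhibitor of lipoprotein lipase, fell from 28.7 and 16.8 FPKM to 5.44 and 3.86 FPKM, or -2.04 ± 0.29 SE as a log2 fold change (limma adjusted p = 0.0188). The lipoprotein receptor gene Vldlr fell from 148 ± 10.24 to 61.0 ± 2.97 FPKM (SD, n = 2 each; log2 fold change -1.26 ± 0.14 SE, adjusted p = 0.00882). The mitochondrial carrier gene Slc25a34 fell from 2.83 and 2.04 FPKM to 0.413 and 0.375 FPKM (adjusted p = 0.0310), and Plin5 was the fourth to fall. Slc25a34 and Plin5 passed the filter only through YFP, and neither was tested with the filter applied again without a YFP library. Fabp4 and Mgll rose, while Pdk4, a kinase that diverts pyruvate from oxidation and was chosen after its values were seen, measured 76.0 and 57.5 FPKM in YFP, against 57.9 and 44.0 FPKM in DEK with overlap (adjusted p = 0.271). With any 1 library left out on the same genes the calls of Angptl4 (adjusted p = 0.0614 to 0.148), Vldlr (0.0553 to 0.0913), Slc25a34 (0.0999 to 0.170) and Plin5 (0.104 to 0.160) were lost. In the list of PPAR and oestrogen-related receptor regulators limma called 0 of 19. At an unadjusted p under 0.05, 1 was higher and 4 were lower, against 2057 and 1488 of all 12179 genes tested.

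In the list of further fatty acid and acyl-CoA enzymes, most of them mitochondrial, 2 of 31 rose and 1 fell, 9.68% against 7.78% of all tested genes. At an unadjusted p under 0.05, 12 of the 31 were higher and 3 lower, against 2057 and 1488 of 12179 genes, and the median log2 fold change was 0.30. Ivd, which oxidises the leucine product isovaleryl-CoA, went from 46.8 and 39.9 FPKM to 90.0 and 88.0 FPKM, or 1.02 ± 0.14 SE as a log2 fold change (limma adjusted p = 0.0182). Mut, the mutase that feeds propionate carbon into the citric acid cycle, rose with a log2 fold change of 0.65 (adjusted p = 0.0384), and Nudt7, which stands in this list although its product is a peroxisomal hydrolase of coenzyme A, fell with -0.87 (adjusted p = 0.0349). Without any 1 library on the same genes Ivd, Mut and Nudt7 lost their calls (adjusted p = 0.0823 to 0.194). Of the 14 genes in the list of peroxisomal oxidation and export, which does not hold Nudt7, limma called 0, with 1 higher at an unadjusted p under 0.05. Among other carriers 1 of 15 rose (6.67% called), the ADP/ATP carrier gene Slc25a5 (log2 fold change 0.73, adjusted p = 0.0446), which lost its call without any 1 library on the same genes (0.111 to 0.235). In the list of other uptake, binding and activation genes 2 of 15 rose (13.3% called), Fabp4 and Gpihbp1.

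**Figure D5:**
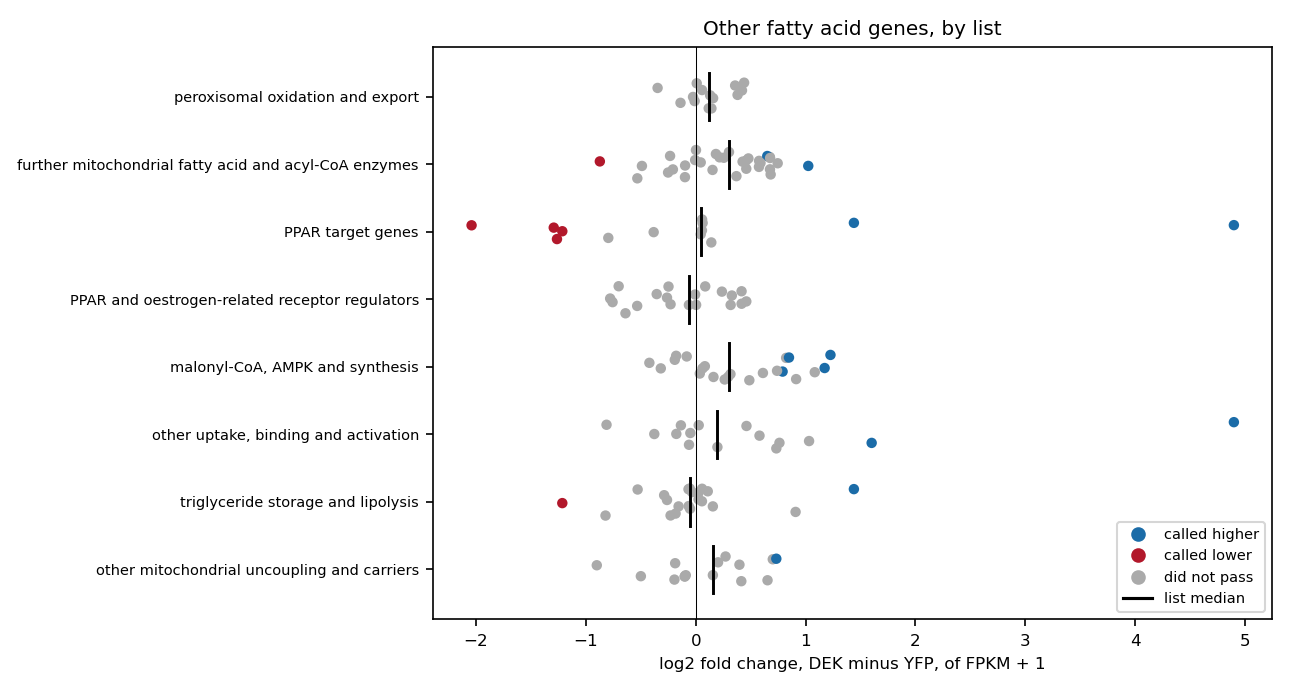
Log2 fold change, DEK minus YFP, of FPKM + 1 (horizontal axis) for each tested gene of the 8 lists of other fatty acid genes (vertical axis); a gene in more than 1 list appears in each. Blue marks genes called higher, red those called lower, grey the others, and a black bar the list median, which is 0.31 in the synthesis list.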

How the data were processed

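The FPKM values were deposited by the authors as 1 table of 4 libraries. STAR 2.5.3a, StringTie 1.3.3, R 3.4.1 and build mm9 are named per the submitters' processing notes. Settings, annotation and strand use are not given in the sources used here. The unit is inferred from non-whole values and column totals of 541183 to 545123, and TPM cannot be told apart from it. Depth is unknown, so no counting interval is given. All 4 value columns were used and 0 left out.

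After adding 1 to each FPKM and taking log2, limma 3.58.1 (R 4.3.3; empirical Bayes with a variance trend, two-sided, no covariates) was fitted to the 12179 genes that reached 1 FPKM in 2 or more libraries. P-values were adjusted by Benjamini-Hochberg over all of these, with a call at an adjusted p under 0.05. Folds on this scale understate low genes. Same-numbered libraries share only a number (correlation of their deviations 0.0635), so none were paired. The labels name no batch. Named genes were all members, Dek, Rn45s, called genes of 8 pathway lists (up to 4 in each direction) and up to 3 genes of each of 10 marker lists by smallest p. Pax7, Myod1, Myf5, Adipoq, Cidec, Pck1, Retn, Flt1, Kdr, Dvl2, Acaca, Acacb, Mlycd and Pdk4 were named outside that rule, after their values were seen. So were the endothelial and macrophage markers not called. The members and lists were chosen with earlier results of these data known. Exon overlaps between genes were computed on GENCODE M21 (GRCm38), a later build than that of the deposited values, and no coordinates were taken from it. Alternatives were a library left out (with or without filtering again), a replicate block, 0.1 or 5 added, no filter or 5 FPKM, TMM or quantile scaling, Rn45s removal, other variance models and an adjusted p under 0.1. Tests that need counts were not run on these values.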

Additional observations from a re-analysis of the deposited data

How the results depend on the processing

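With 1 library left out on the same genes, limma called 0 to 184 genes over the table (948 with all 4), 0 to 1 members higher and 0 lower (5 to 6 and 6 to 7 at an unadjusted p under 0.05), and 0 to 1 other pathway genes higher and 0 lower. The member median ran from -0.0750 to 0.0524. With the low filter applied again, the table gave 168 and 83 genes without YFP replicates 1 and 2, and 302 and 780 without DEK replicates 1 and 2. Members called then numbered 0 to 1 higher and 0 to 3 lower, other pathway genes 1 to 7 higher and 0 to 4 lower (6 higher without DEK replicate 2, and 2 lower without DEK replicate 1), and the median was -0.0667 without YFP replicate 2 and -0.0707 without DEK replicate 2. The fit then assumes that the single library left in a group varies as the other group does. With no low filter limma called 293 genes, 0 members in either direction (unadjusted p under 0.05 for 6 higher, 8 lower) and 2 other pathway genes each way. The replicate block, for libraries that share only a number, gave 618 genes and 6 higher and 3 lower other pathway genes, and lost Acadl among the members. Members called lower numbered 5 with TMM, 5 with quantile normalization and 6 with Rn45s removed. Other pathway genes called lower numbered 8 in each of these, and 6 were called higher with Rn45s removed. The member median was -0.0772 under quantile normalization and -0.0896 after Rn45s removal, a step that moved the all-gene median from 0.05 to -0.07. Higher genes made up 58.8% of all calls, 45.4% with quantile normalization and 43.5% with Rn45s removed. At an adjusted p under 0.1 there were 2096 genes, 6 members each way, and 25 higher and 11 lower other pathway genes. With 0.1 or 5 added, 5 FPKM, no trend or robust estimation each of these counts stayed within 1.5 times. Over members and settings 37 calls were lost and 18 gained. The cause of these shifts was not tested. Unknown depth limits genes near 1 FPKM, such as Cpt1b, Fabp3 and Ppard.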
